A study of Homo sapiens with 6 samples.

Results

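The genes described are 8 homeobox genes of the TALE class (PBX2, PBX3, PBX4, MEIS1, MEIS2, MEIS3, PKNOX1 and TGIF1) together with HOXB13. They were taken as every probe whose gene symbol in the platform annotation is 1 of these 9 names, which gave 20 of 47231 probes on the array and 9 of 20046 genes with such a probe. The names were put together after a comparison of the same arrays had placed PBX2 and HOXB13 past its threshold, so these genes were chosen by their measured differences between the groups, which are given below as a description, with no P value for them and nothing read from the calls that led to the choice. Transcript levels were measured in A549, a human lung adenocarcinoma cell line, at 48 h after transfection. NME2-induced cells received pcDNA-NME2-MYC, and control cells received pcDNA-MYC. NME2 (NM23-H2), a nucleotide-phosphorylating enzyme, suppresses metastasis and can act at DNA. The comparison asks how the transcriptome differs once its level is raised. Each group held 3 arrays, each of 1 biological replicate, read on Illumina Human HT-12 v4 beads. A549 cells make NME2 of their own, so the controls were not free of it; both groups were transfected, and both belong to a single cell line.

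TALE proteins carry a homeodomain with a 3-amino-acid loop extension. PBX proteins bind DNA as dimers with MEIS or PKNOX proteins and with HOX proteins, and these complexes set position along the body axis in embryos and are active in several leukaemias. TGIF1 belongs to the same class but acts as a repressor that binds SMAD proteins and recruits histone deacetylases. HOXB13 is a HOX protein of the hindmost class, best known for its expression in the prostate.

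As the PBX genes gave both the lowest and the highest TALE differences between the groups, their promoters are shown. Each window holds 250 bases before and 50 bases after the start of the gene, 5′ to 3′ on the strand of the gene, from RefSeq on GRCh38.p14. Capitals mark CCCTCCC and its reverse complement GGGAGGG, a repeat found in the MYC promoter element that NME2 is known to bind. The windows are chr6:32190153-32190452 (minus strand) for PBX2, chr9:125747933-125748232 (plus strand) for PBX3 and chr19:19618638-19618937 (minus strand) for PBX4.
PBX2: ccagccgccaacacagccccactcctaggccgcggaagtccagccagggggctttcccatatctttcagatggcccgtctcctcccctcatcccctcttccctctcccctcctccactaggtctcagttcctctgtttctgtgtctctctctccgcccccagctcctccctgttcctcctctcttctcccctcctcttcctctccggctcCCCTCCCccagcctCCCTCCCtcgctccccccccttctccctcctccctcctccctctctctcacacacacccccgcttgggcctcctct
PBX3: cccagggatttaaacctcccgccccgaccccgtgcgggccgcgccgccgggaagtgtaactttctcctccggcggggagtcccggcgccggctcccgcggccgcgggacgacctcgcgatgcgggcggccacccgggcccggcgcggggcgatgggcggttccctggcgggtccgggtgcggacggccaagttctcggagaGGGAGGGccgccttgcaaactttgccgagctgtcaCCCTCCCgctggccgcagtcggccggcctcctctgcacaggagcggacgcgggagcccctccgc
PBX4: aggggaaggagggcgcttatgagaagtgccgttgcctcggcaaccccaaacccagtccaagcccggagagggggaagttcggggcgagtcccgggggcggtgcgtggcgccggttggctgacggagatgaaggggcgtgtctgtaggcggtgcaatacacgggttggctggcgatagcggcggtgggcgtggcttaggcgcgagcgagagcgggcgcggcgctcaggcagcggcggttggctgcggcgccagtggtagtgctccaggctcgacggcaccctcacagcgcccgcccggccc
The PBX2 window was made up of C and T to 79.7%, a share reached by 0.0456% of the 35114 promoters of the table, whose median was 49.7%. Its longest unbroken run of C and T was 39 bases, and 0.197% of promoters held a run at least as long. The PBX3 window had 51.7% C and T with a longest run of 11 bases, and the PBX4 window 41.3% with a longest run of 5 bases, so the PBX windows differed widely in this respect. CCCTCCC stood 2 times in the strand shown for PBX2 and not on its other strand. PBX3 held 1 copy on each strand and PBX4 none. On either strand the repeat occurred in 26.6% of all promoters, and this match marks letters and not a site.

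**Figure D1:**
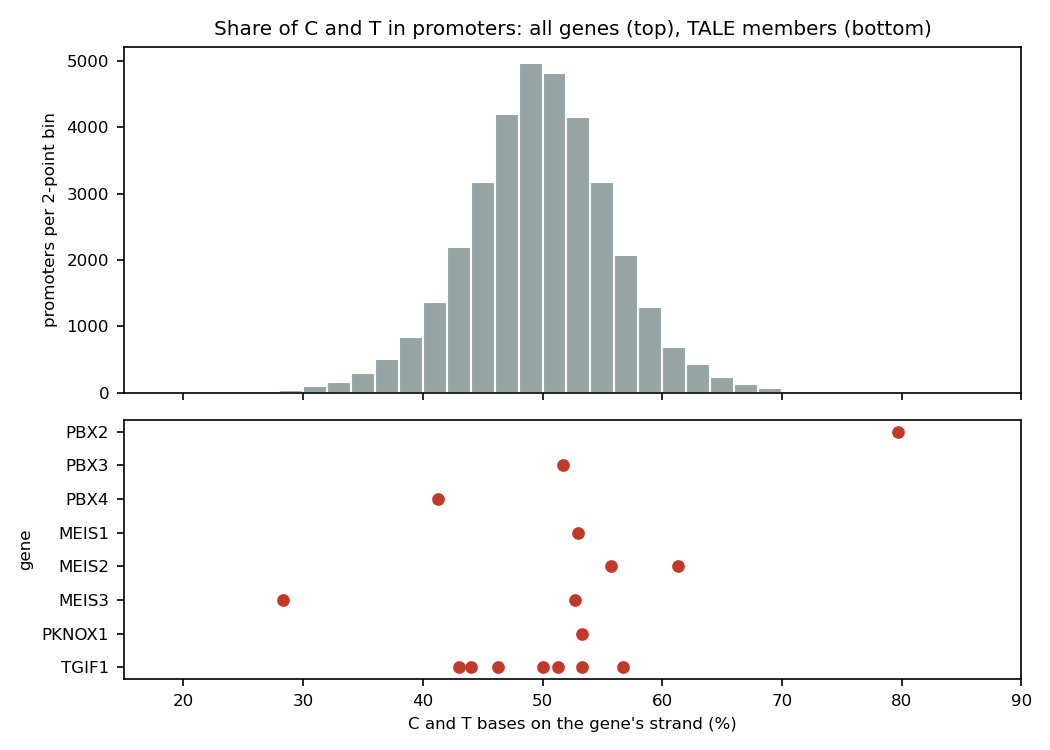
Share of C and T bases in promoter windows of 300 bases, in percent on the x axis, as the number of all promoters per bin (top) and as 1 point per window of each TALE gene (bottom). PBX2 lies at 79.7%, right of the bulk of promoters around the median of 49.7%, and MEIS3 has a window at 28.3%.

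Promoter windows were matched for 8 of the 9 genes, with 16 windows in all and more than 1 for MEIS2, MEIS3 and TGIF1. After PBX2, the highest share of C and T was 61.3% in a window of MEIS2, and the lowest was 28.3% in a window of MEIS3. TGACAG, the core that MEIS and PKNOX proteins bind, or its reverse complement CTGTCA occurred in 15.8% of all promoters. It was present in PBX3 and in 2 of the 7 TGIF1 windows. TGATNNAT, the core of PBX dimers with HOX proteins, or its reverse complement ATNNATCA occurred in 7.4% of promoters. It was present in a window of MEIS2 and in 3 of those of TGIF1. Neither motif was in the PBX2 or PBX4 window, and in PBX3 the letters CTGTCA stand directly before CCCTCCC. Besides PBX2 and PBX3, CCCTCCC or its reverse complement was present in the MEIS1 and PKNOX1 windows and in windows of MEIS2, MEIS3 and TGIF1. Whether this repeat goes with the difference of a gene was not tested.

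Of the 20 probes, 13 had a detection P value under 0.05 on at least 3 of the 6 arrays, and each of the 9 genes had at least 1 such probe. PBX2, PBX3, PBX4, MEIS1 and HOXB13 had 1 probe each under their symbol, so for them no other probe was compared. Probes without a symbol in the annotation, 17110 on the array, could not be assigned to a gene. A detection P value gives the share of negative control beads that were as bright as the probe. The 10 probes detected on all 6 arrays covered PBX2, PBX3, MEIS1, MEIS2, MEIS3, PKNOX1 and TGIF1. PBX4 was detected on all 3 NME2-induced arrays and on 0 of 3 control arrays, whereas HOXB13 was detected on 0 of 3 NME2-induced arrays and on all 3 control arrays. Both thus entered the comparison through the group in which they were higher. The 7 remaining probes belonged to MEIS2 (3 of 4), PKNOX1 (1 of 2) and TGIF1 (3 of 7). Of these, 4 were detected on no array and 3 on 1 or 2 arrays, with deposited signals between -10.4 and 18.7.

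**Figure D2:**
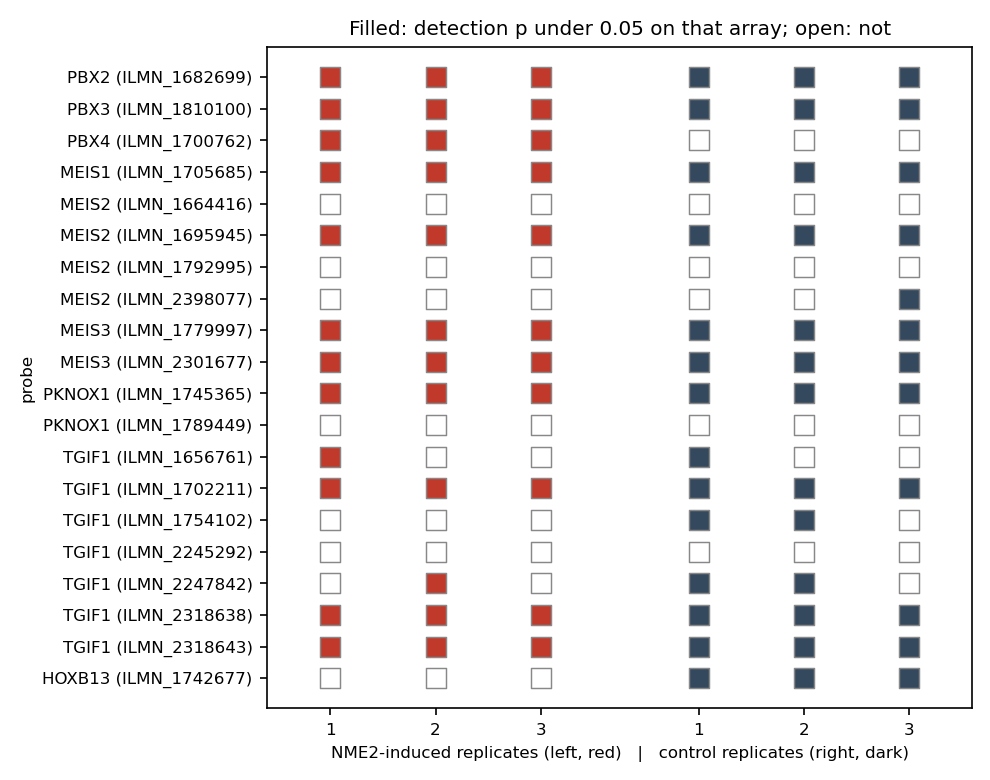
Detection of each of the 20 probes (rows) on each of the 6 arrays (columns), NME2-induced replicates left and control replicates right. A filled square has a detection P value under 0.05; HOXB13 is filled on the 3 control arrays alone and PBX4 on the 3 NME2-induced arrays alone.

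Across the series, 19043 to 20047 probes were detected on NME2-induced arrays and 19916 to 20726 on control arrays. On the first principal component, with 32.6% of the variance, the NME2-induced arrays lay at 5.62, 8.02 and 16.44 and the control arrays between -11.23 and -8.44. Probes of the NME2 locus differed in both directions, so the groups are named here as the labels give them: the 3 detected NME2 probes differed by 1.04, 0.26 and -0.59 on the log2 scale, and those of the NME1-NME2 readthrough transcript by -1.99 and -1.89. NME1 probes differed by -0.26 to 0.16. Among 11 markers of A549 and lung epithelium, 6 were detected (AKR1B10, EPCAM, KRT19, KRT8, NAPSA and NQO1). KRT18 and SFTPB did not pass the detection filter either, and NKX2-1, SFTPC and AKR1C1 were detected on no array. The summed signal of the 11 was 22980 to 25281 on NME2-induced arrays and 24297 to 26110.2 on control arrays. Of the 5 prostate markers with a probe, 0 passed the detection filter, and their summed signal was 7.5 to 31.8 on NME2-induced arrays and 1.6 to 21.1 on control arrays. Of 8 markers of blood cells, vessels and fibroblasts, CD14 and COL1A1 were detected, with a summed signal over the 8 genes of 135 to 143.3 on NME2-induced arrays and 107.7 to 174 on control arrays.

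PBX2, a broadly expressed PBX protein, was lower in NME2-induced cells. Its normalized log2 signal was 5.79, 6.08 and 5.68 on NME2-induced arrays and 6.76, 6.86 and 6.78 on control arrays. Every NME2-induced array lay below every control array, and NME2-induced replicate 2 lay nearest to the controls. The means were 5.85 ± 0.21 in NME2-induced cells and 6.80 ± 0.05 in control cells (SD, n = 3 each), a difference of -0.95 (SE 0.12), or 1.93-fold lower. In the deposited linear signal, PBX2 averaged 42.2 ± 8.50 in NME2-induced cells and 95.7 ± 4.07 in control cells. In bulk RNA, fewer transcripts per cell and fewer cells with the transcript cannot be told apart.

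The second member of the PBX group, PBX3, is a partner of HOXA9 and MEIS1 in leukaemia. Its log2 signal was 7.51, 7.70 and 7.45 on NME2-induced arrays and 7.58, 7.94 and 7.82 on control arrays. The groups overlapped, since control replicate 1 lay below NME2-induced replicate 2. The difference was -0.22 (SE 0.12), with SDs of 0.13 in NME2-induced cells and 0.18 in control cells.

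PBX4 ran the other way, at a level near the limit of detection. Its log2 signal was 5.19, 4.86 and 5.00 on NME2-induced arrays and 4.67, 4.67 and 4.75 on control arrays, and the groups did not overlap. Since PBX4 was not detected on any control array, the control level is only an upper limit: PBX4 was at least 1.17-fold higher in NME2-induced cells, with measured means of 5.02 ± 0.17 in NME2-induced cells and 4.70 ± 0.05 in control cells. This bound sets the mean of the brighter group against the lowest signal of a detected probe on each array of the dimmer one, or the probe's own signal where that is higher. The deposited signals of 20.73, 12.82 and 16.02 on NME2-induced arrays and 8.27, 8.19 and 10.20 on control arrays were all small.

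HOXB13 was lower in NME2-induced cells, also near the limit of detection. Its log2 signal was 4.40, 4.60 and 4.54 on NME2-induced arrays and 5.33, 5.10 and 5.32 on control arrays. No NME2-induced array reached the dimmest control array, control replicate 2. In the deposited signal, HOXB13 was at -0.55, 6.40 and 4.64 on NME2-induced arrays and at 24.4, 18.4 and 24.0 on control arrays, that is, not above background in any NME2-induced array. The measured means were 4.51 ± 0.11 in NME2-induced cells and 5.25 ± 0.13 in control cells, a measured difference of -0.73 (SE 0.11). As a size only a bound can be given: HOXB13 was at least 1.32-fold lower in NME2-induced cells.

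**Figure D3:**
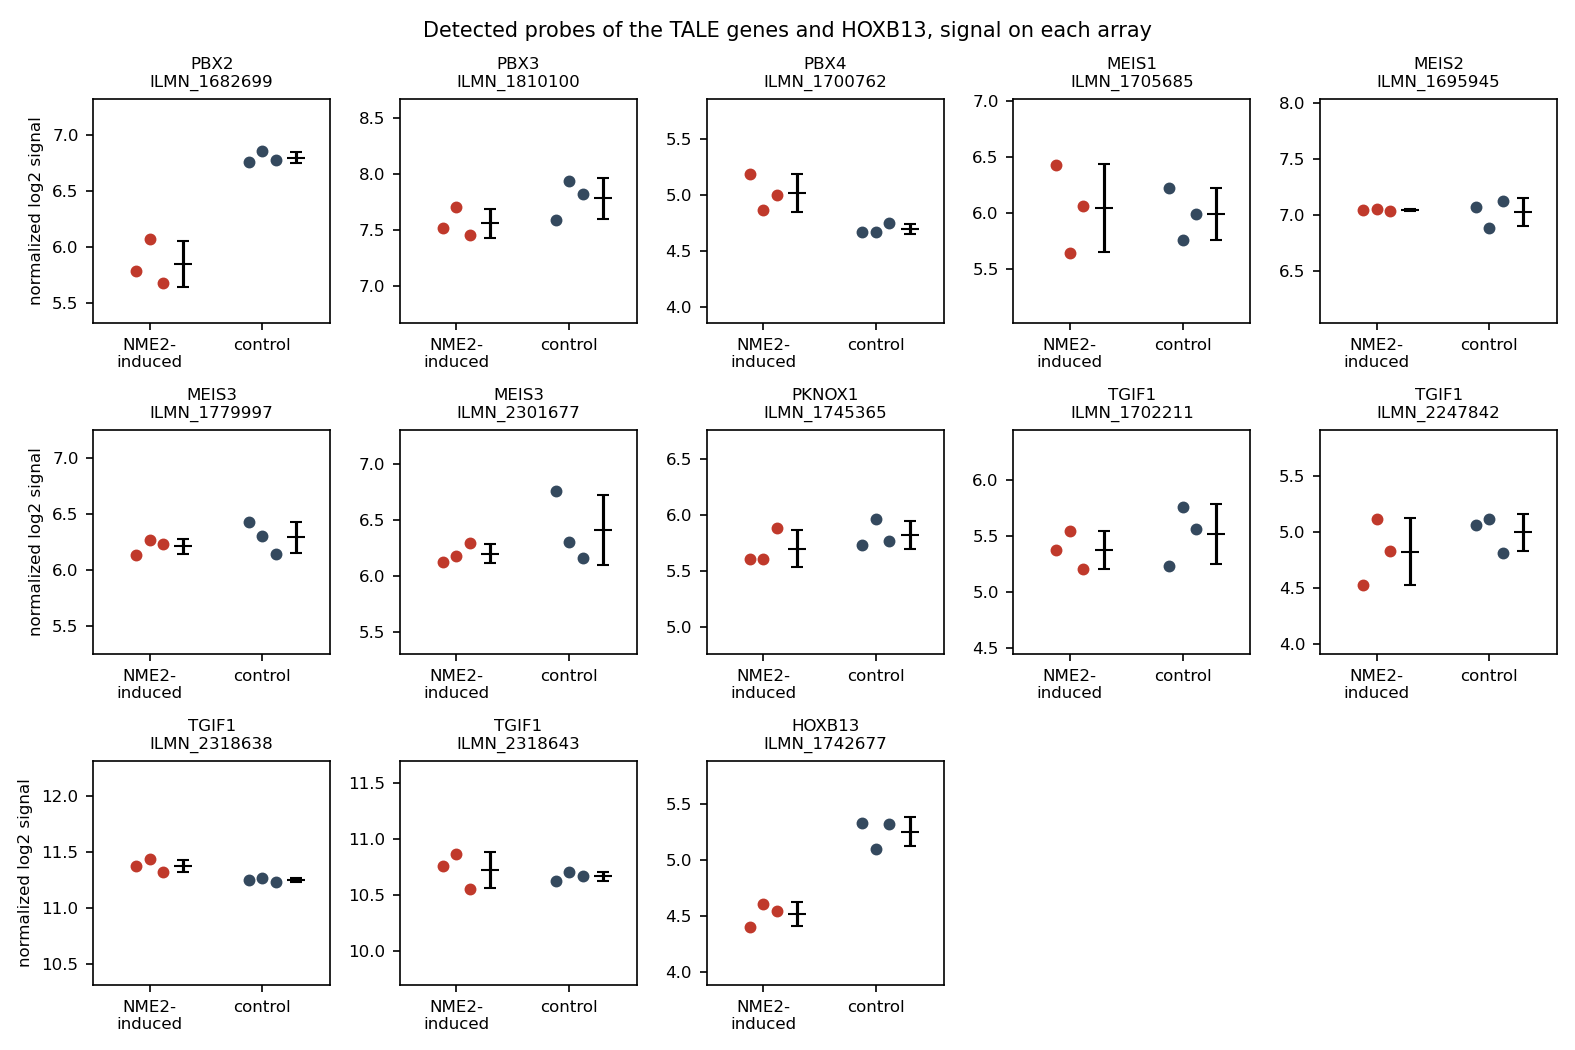
Normalized log2 signal of the 13 detected probes on each array (points; red, NME2-induced; dark, control) with the mean and SD of 3 arrays beside them; every panel spans 2 log2 units around its own centre. The groups stand apart for PBX2 (5.68 to 6.08 in NME2-induced cells, 6.76 to 6.86 in control cells) and HOXB13, and by less for PBX4 and for TGIF1 probe ILMN_2318638.

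The MEIS proteins, which bind DNA with PBX and keep it in the nucleus, showed small differences. MEIS1, a cofactor of HOX proteins in leukaemia, was at 6.42, 5.64 and 6.06 on NME2-induced arrays and 6.22, 5.76 and 5.99 on control arrays. Its spread within groups was wide, with a pooled SD of 0.32 against a median of 0.15 over all detected probes, and a difference of 0.05 (SE 0.21) was within it. MEIS2, a close relative of MEIS1, was at 7.05, 7.06 and 7.03 on NME2-induced arrays and 7.07, 6.88 and 7.13 on control arrays. The NME2-induced values lay within the control range, and the difference was 0.02 (SE 0.10).

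MEIS3 was read by a pair of probes to the same transcript. Probe ILMN_2301677 was at 6.13, 6.18 and 6.30 on NME2-induced arrays and 6.76, 6.31 and 6.16 on control arrays, with control replicate 1 above the other 5 arrays. Probe ILMN_1779997 was at 6.13, 6.27 and 6.24 on NME2-induced arrays and 6.43, 6.31 and 6.14 on control arrays. The groups overlapped in both, and the differences of -0.21 (SE 0.16) and -0.08 (SE 0.10) had the same sign.

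PKNOX1 (PREP1), the other kind of PBX partner, was at 5.61, 5.61 and 5.89 on NME2-induced arrays and 5.73, 5.96 and 5.77 on control arrays. NME2-induced replicate 3 lay within the control range, and the difference was -0.12 (SE 0.12).

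TGIF1 was covered by 7 probes, of which 4 were detected, and these did not differ in the same direction. Probe ILMN_2318638 was at 11.38, 11.44 and 11.33 on NME2-induced arrays and 11.25, 11.27 and 11.23 on control arrays, so the groups were apart but by 0.13 (SE 0.08). Probe ILMN_2318643 differed by 0.06 (SE 0.11), with 10.76, 10.87 and 10.55 on NME2-induced arrays and 10.62, 10.71 and 10.67 on control arrays. Both of the dim probes were on the other side of 0. ILMN_1702211 differed by -0.14 (SE 0.15) and ILMN_2247842 by -0.17 (SE 0.16), the second of them detected on 1 NME2-induced and 2 control arrays. The mean of the 4 probes differed by -0.03, against 0.13 for the brightest probe, so the sign for the gene depended on the probes used. ILMN_2318638 and ILMN_2318643 were annotated to the same transcript, and ILMN_1702211 and ILMN_2247842 each to another transcript of the gene. Whether the transcripts differed from each other was not tested.

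**Figure D4:**
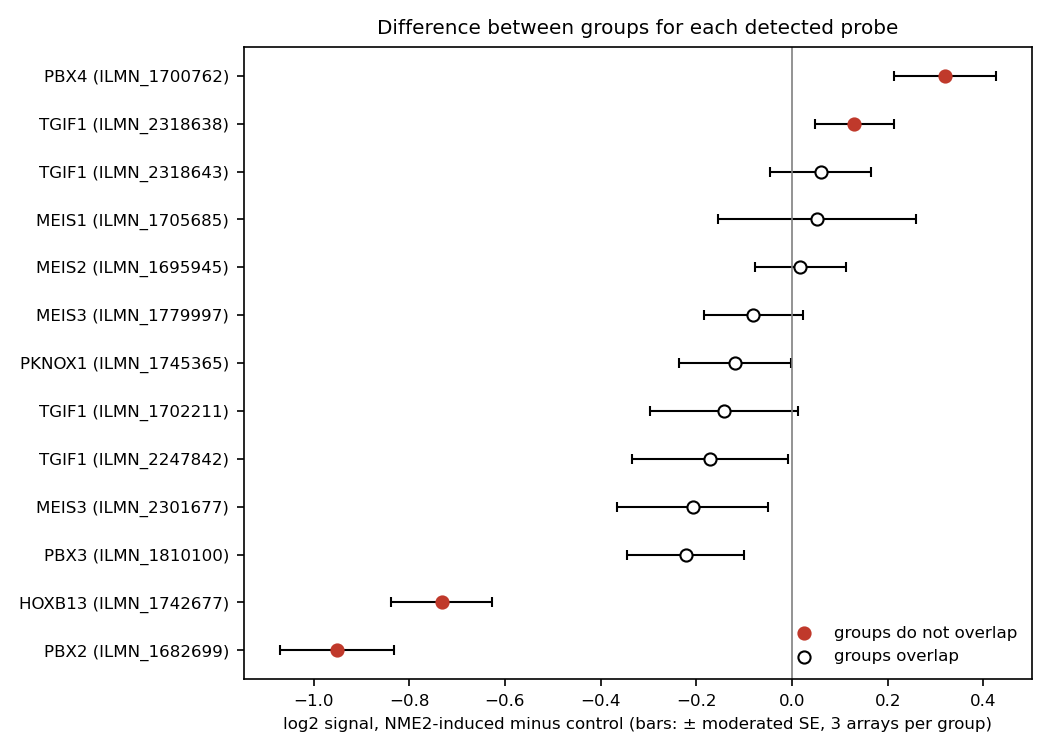
Difference in log2 signal, NME2-induced minus control, for each of the 13 detected probes, with the moderated standard error from limma as bars; filled points mark probes whose groups do not overlap. PBX2 at -0.95 and HOXB13 at a measured -0.73, the genes whose differences led to the choice, are at the bottom, and the other 11 probes range from -0.22 to 0.32; HOXB13 and PBX4 were each not detected in 1 group, so their points are measured values and not sizes.

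Over the 13 detected probes, 8 differences were below 0 and 5 above, with a median of -0.12, while 9821 of all 19394 detected probes were below 0 and their median was -0.0029. Without PBX2, HOXB13 and PBX4 the other 10 probes ranged from -0.22 to 0.13, with a median of -0.10. The groups were apart in 4 of 13 probes, and over all detected probes this held for 20.9%. Among the 10 probes without PBX2, HOXB13 and PBX4 the groups were apart in 1. In limma's fit over all probes, 1 of 13 (PBX2) was past an adjusted P value of 0.05, a threshold that 0.237% of probes passed. In the fit with 1 probe per gene, 2 of 9 genes (PBX2 and HOXB13) were past it, and 0.247% of 11358 genes were. As these calls led to the choice of the genes, nothing is read from their number. PBX2 was past the threshold in the fit by gene without NME2-induced replicate 2 (-1.07) and lost its call without any of the other 5 arrays, at -0.97 to -0.87. HOXB13 lost its call without any single array, at measured differences of -0.81 to -0.68. In the same fit HOXB13 also lost it with an offset of 50, without further background correction and with a trended robust variance, and could not be called where detection on all 6 arrays was required, while both genes lost it without a filter, by the methods' t-test and with the replicate block.

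**Figure D5:**
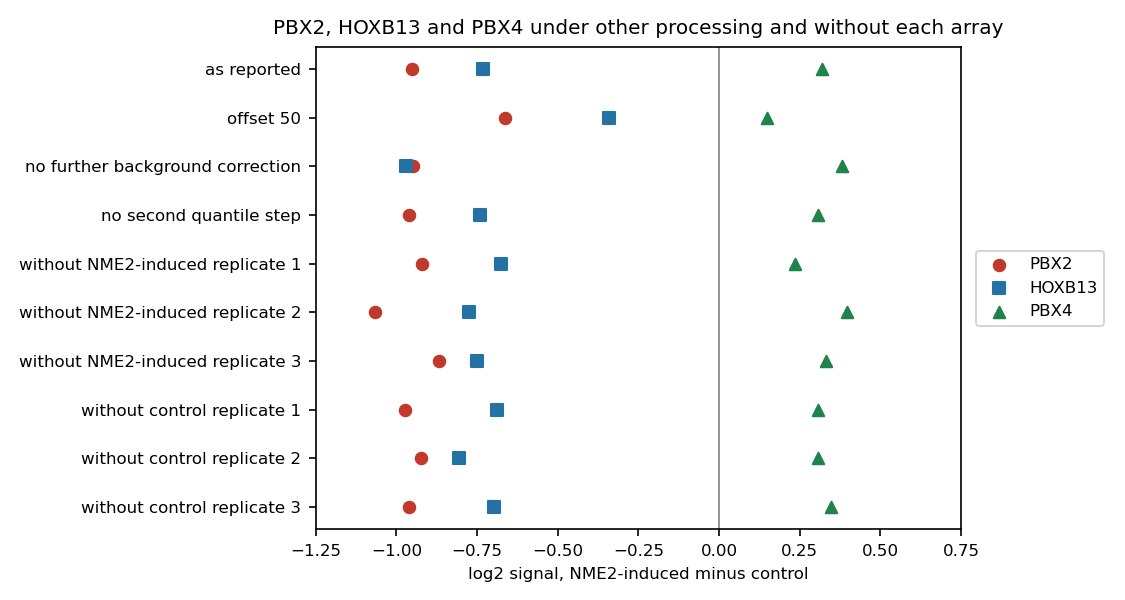
Difference in log2 signal, NME2-induced minus control, of PBX2, HOXB13 and PBX4 (x axis) under the settings that can move it and with each array left out (rows). PBX2 ranges from -1.07 to -0.66, HOXB13 from -0.97 to -0.34 and PBX4 from 0.15 to 0.40.

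Genes of related families and pathways were not among the 9 chosen, and they were tested, with P values adjusted over all 11358 genes. A gene is said to have a probe where a probe carried its symbol in the platform annotation. Of 11 other TALE genes, 10 had a probe and 4 were detected, and 0 were past the threshold or at an unadjusted P value under 0.05 by limma or by the methods' t-test. The 4 lay just below 0, with a median of -0.08 against 0.0011 over all genes. They were TGIF2, a paralogue of TGIF1 and likewise a repressor, at -0.18 (SE 0.09, adjusted P = 0.414), and the Iroquois genes IRX1 at -0.10, IRX5 at -0.07 and IRX3 at -0.01.

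Of the 38 other genes of the HOX clusters, 28 had a probe and 17 were detected. By limma 0 were past the threshold, while 1 higher and 2 lower had an unadjusted P value under 0.05, against 14.5% of all genes. The methods' t-test gave 3 such genes, against 13.8% of all genes, and 0 after adjustment. HOXD4 averaged 5.69 ± 0.13 in NME2-induced cells and 5.26 ± 0.14 in control cells, a difference of 0.43 (SE 0.11, adjusted P = 0.170). HOXC4, of the same paralogue group on another chromosome, averaged 6.49 ± 0.16 in NME2-induced cells and 6.91 ± 0.13 in control cells, a difference of -0.42 (SE 0.11, adjusted P = 0.185). In both the groups did not overlap, with opposite directions. HOXB8 differed by -0.27 (SE 0.12, adjusted P = 0.344) and HOXD10, the most variable of the 4, by 0.49 (SE 0.25, adjusted P = 0.405). HOXD10 was not detected on control replicate 2, where its deposited signal was 6.30, so its 0.49 is a measured value and not a size. The median of the 17 genes was 0.08, and 5 of them were below 0.

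Among 17 partners and cofactors of TALE proteins, 15 had a probe and all 15 were detected. By limma 0 were past the threshold, 1 of 15 had an unadjusted P value under 0.05 (14.5% of all genes) and the methods' t-test gave 2 of 15 (13.8% of all genes), with 0 after adjustment. That gene was EP300, a histone acetyltransferase, with 6.89 ± 0.08 in NME2-induced cells and 7.12 ± 0.10 in control cells (difference -0.23, SE 0.09, adjusted P = 0.324). The others with the smallest P values were CRTC2, a coactivator of CREB, at -0.33 (adjusted P = 0.366), HDAC1, the deacetylase recruited by TGIF1, at 0.16 (adjusted P = 0.416), and SMAD2, which TGIF1 binds, at 0.26 (adjusted P = 0.457). The median was 0.02.

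Of 21 chromatin regulators that keep HOX genes active or silent, most of them MLL or Polycomb proteins, 18 had a probe and 17 were detected. By limma 0 were past the threshold, 1 of 17 had an unadjusted P value under 0.05 (14.5% of all genes) and the methods' t-test gave 3 of 17 (13.8% of all genes), with 0 after adjustment. SUZ12, a core subunit of the Polycomb complex that methylates histone H3, averaged 11.12 ± 0.04 in NME2-induced cells and 11.32 ± 0.02 in control cells (difference -0.20, SE 0.07, adjusted P = 0.295). BMI1, of the other Polycomb complex, differed by -0.16 (adjusted P = 0.406), the histone methyltransferase DOT1L by 0.27 (adjusted P = 0.479) and the MLL subunit ASH2L by -0.13 (adjusted P = 0.482). DOT1L was not detected on control replicate 1, where its deposited signal was 4.64, so its 0.27 is likewise not a size. The median of the list was 7e-04.

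The genes beside PBX2 and HOXB13 were examined next, as 5 genes with a probe on each side in the RefSeq order of GRCh38.p14. Beside PBX2, which lies in the major histocompatibility region, 5 of 10 neighbours were detected and their differences ran from -0.10 (HLA-DRA, an antigen-presenting chain) to 0.19 (RNF5, a ubiquitin ligase). PPT2 differed by 0.18, AGPAT1 by -0.01 and AGER by -0.04. By limma 0 of these 5 were past the threshold, and none had an unadjusted P value under 0.05 by limma or the methods' t-test. Beside HOXB13, which ends the HOXB cluster, 6 of 10 were detected. By limma 0 were past the threshold and 3 of 6 had an unadjusted P value under 0.05 (14.5% of all genes), and the methods' t-test gave 3 as well (13.8% of all genes). The nearest gene on the side away from the cluster, TTLL6, which adds glutamate chains to tubulin, averaged 5.15 ± 0.02 in NME2-induced cells and 5.67 ± 0.26 in control cells (difference -0.52, SE 0.13, adjusted P = 0.176). The others of these 3 were HOXB8 and UBE2Z, a ubiquitin-conjugating enzyme, which differed by 0.21 (SE 0.08, adjusted P = 0.298). CALCOCO2, an autophagy receptor, differed by 0.11, ATP5MC1, a subunit of ATP synthase, by 0.17 and SNF8, of the ESCRT machinery, by -0.04. Between HOXB13 and HOXB8, the genes PRAC1, PRAC2, MIR196A1 and HOXB9 were detected on no array.

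Over the 6 arrays, the genes whose signal ran most like that of PBX2 were PLS3, an actin-bundling protein (Pearson r 0.9979), ZBTB45 (r 0.9975) and IVNS1ABP (r 0.9966). For HOXB13 they were ISOC2 (r 0.9962), MSMO1, an enzyme of cholesterol synthesis (r 0.9938), and ZMYM1 (r 0.9937). With 6 arrays in 2 groups a gene that differs between the groups gives a high r, and 136 of 14913 probes had r over 0.95 with PBX2 and 115 with HOXB13. The differences of these genes between the groups ran from -0.58 for ISOC2 to -0.18 for IVNS1ABP.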

How the data were processed

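RNA of 3 NME2-induced and 3 control replicates of A549 cells was read on Illumina HT-12 v4 arrays of 47231 probes; groups and replicate numbers came from the sample labels. The deposited values are intensities, each with its detection p-value, exported by the authors from BeadStudio (version not given in the sources used here). The value table of the series held the same intensities as the table described as non-normalized (largest difference 0). With medians of 7.542 to 7.566 and 26.65% to 26.75% of signals at or below 0 on every array, the authors seem to have deposited intensities after background subtraction and quantile normalization, so total brightness could not be compared. The test had been planned for signals that were not normalized and was kept.

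In limma 3.58.1 (R 4.3.3), signals were background-corrected by normexp with the background taken from the detection p-values, given an offset of 16, quantile-normalized and set on the log2 scale, which understates differences of dim probes. Probes detected at a detection p-value under 0.05 on at least 3 arrays (19394) were fitted with lmFit and eBayes, 2-sided, with Benjamini-Hochberg adjustment. A second fit used the brightest detected probe of each of 11358 genes. Platform symbols were single for 30113 probes, several for 8 and absent for 17110, and 30074 were matched by gene ID to RefSeq without changing a symbol. SDs are over 3 arrays, SE is limma's moderated standard error, and 3 arrays per group limit the precision. Levels of different probes were not compared.

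The 9 genes, the lists of other genes and the markers were chosen with earlier results of these data known. Named were all 9 genes with every detected probe, the NME2 locus, up to 4 genes with the smallest p-value per list, the detected ones among 5 neighbours on each side of PBX2 and HOXB13, and the 3 genes most correlated with each. Other offsets, filters, variance models, a replicate block, the methods' t-test and leaving out each array were tried. The fit over all probes was run on simulated log2 values with known differences, as a check of the estimated differences. The fit by gene, the filter and the background correction were not part of that check. Slides are not named in the sources used here and were not examined as a batch. HOXB13 is without a promoter window here.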

Additional observations from a re-analysis of the deposited data

How the results depend on the processing

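Another filter, variance model or source table or the replicate block cannot move a probe's difference. Of the 117 values of the 13 detected probes under the settings that can, 113 moved by less than 1 SD. Most of the 117 were values with an array left out. Such a value could not move by 1 SD, because the SD comes from the spread of the same arrays. The 113 are therefore no measure of how steady the differences were. The 4 that moved were PBX2 (-0.66), HOXB13 (-0.34) and PBX4 (0.15) with an offset of 50, and HOXB13 (-0.97) with no further background correction. The bound of HOXB13 was 1.15-fold with an offset of 50, and 1.29- to 1.40-fold with each array left out. The sign changed under 2 settings for MEIS1 and under 1 each for MEIS2 and TGIF1 probe ILMN_2318643. Among the 9 genes, 2 were past the threshold; 1 (PBX2) was with an offset of 50, without further background correction, with detection on all 6 arrays and with a trended robust variance, and 0 were without a filter, by the methods' t-test and with the replicate block. Leaving out each array gave 0 to 1 (PBX2). Among the 13 probes, 1 was past the threshold, 2 (PBX2 and HOXB13) with a detection p-value under 0.01, and 0 without further background correction, without a filter, by the methods' t-test, with the replicate block and with each array left out.

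Over all genes, 18 were higher and 10 lower. These numbers became 74 and 49 with an offset of 50, 39 and 30 with detection on all 6 arrays, 163 and 137 with a trended robust variance, 10 and 3 by the methods' t-test, and 4 to 9 and 1 to 2 with each array left out; 6 were lower without further background correction and 5 without a filter. Over all probes, 18 were higher and 28 lower, against 104 and 131 with an offset of 50, 49 and 67 with detection on all 6 arrays, 33 and 51 at a detection p-value under 0.01, 212 and 264 with a trended robust variance, 4 and 2 by the methods' t-test, and 2 to 4 and 1 to 2 with each array left out; 17 were lower without a filter. The cause of these shifts was not tested. In no setting was a gene of the 4 other lists past the threshold.

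Samples with the same replicate number did not deviate together (r of 0.0202, -0.023 and -0.0223). These values cannot tell whether such samples shared a culture or a slide. With the replicate block, 4 genes were higher and 1 lower, and 2 probes were higher and 1 lower. The alternatives for the bound of PBX4 (1.08 to 1.23) and for the fit by gene were chosen after seeing the data. HOXB13 and PBX4 were not tested where detection on all 6 arrays was required, and PBX4 not at a detection p-value under 0.01.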
